A study of Mus musculus with 6 samples.

Results

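*Brdt*, *Brd2* and *Brd3* encode BET (bromodomain and extraterminal) proteins, and their RNA levels were compared between control and *Srsf1* knockout germ cells of the mouse. The rows with these gene names were taken from a table of 54532 genes, where each name had 1 row, so that 3 of 54532 genes were members. The study measured RNA by sequencing in cells labelled STRA8+, germ cells isolated from mouse testes. STRA8 is a retinoic acid-induced protein of germ cells that are about to enter meiosis. The control group held 3 libraries with the genotype Cre, and the group labelled cKO (conditional knockout) held 3 libraries with the genotype *Srsf1* knockout. Only the Cre is named for the controls, and the Cre driver, the age of the mice and the way in which the cells were isolated are not given in the sources used here. *Srsf1* encodes a splicing factor. Between 15364511 and 17310353 fragments were counted per library in the control group and between 14447887 and 15326722 in the cKO group.

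BET proteins carry a pair of bromodomains that bind acetylated lysines on histone tails, and an extraterminal domain through which other proteins are recruited. They bring the elongation kinase P-TEFb to acetylated promoters and enhancers. BRD2 and BRD3 are made in most tissues, whereas BRDT is made in male germ cells, where it acts in transcription during meiosis and, in spermatids, in the removal of acetylated histones before protamines pack the DNA.

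The targeted gene was examined first. *Srsf1* was at 84.7, 45.2 and 51.9 FPKM (a fragment count divided by the length of the gene and the size of the library) in control replicates 1, 2 and 3, and at 5.08, 4.94 and 5.17 FPKM in cKO replicates 1, 2 and 3. All 3 cKO libraries lay below all 3 control libraries, and the cKO mean was 8.36% of the control mean. The log2 fold change of *Srsf1*, cKO against control, was -3.29 (adjusted p = 5.6e-05, limma). Unless another setting is named, log2 fold changes are on the log2(FPKM + 1) scale, on which genes of low FPKM appear to change less than they did.

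The label of the cells was set against marker genes. *Stra8* itself was at 262, 222 and 250 FPKM in the controls and 242, 313 and 262 FPKM in the cKO. The groups overlapped in *Stra8*, and it was not called (log2 fold change 0.15, limma adjusted p = 0.359), nor with any 1 library left out (0.05 without cKO replicate 2 to 0.23 without cKO replicate 1). *Kit*, a receptor of differentiating spermatogonia, had a mean of 36.6 FPKM in the controls and 40.4 FPKM in the cKO and was not called, except with quantile normalization (adjusted p = 0.0338). *Ddx4*, an RNA helicase of germ cells, had means of 160 and 135 FPKM and was called lower (-0.24, limma adjusted p = 0.0480). This call was lost in 11 of 15 alternative analyses (adjusted p from 0.0508 to 0.157). These were all those that left out 1 library except cKO replicate 2, and those with no filter on FPKM, quantile normalization, no trend in the variance, a replicate block, limma-voom and recomputed FPKM.

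The control libraries also held RNA of later germ cells. The summed level of 10 spermatid markers was 2421, 8114 and 2392 FPKM in control replicates 1, 2 and 3, and 6.18, 7.44 and 6.27 FPKM in the cKO libraries. Control replicate 2 stood apart from the other controls in this sum, and the results for the BET genes are therefore also given without it. By the control mean, though not by the cKO mean, the most abundant spermatid marker was *Tnp2*, a transition protein. *Txndc8* was at 0 in all 3 cKO libraries. The summed level of 10 markers of pachytene spermatocytes was 829, 893 and 718 FPKM in the controls and 136, 117 and 117 FPKM in the cKO. In the controls, though not in the cKO, *Ldhc*, a lactate dehydrogenase of male germ cells, was the most abundant of them.

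Genes whose FPKM averaged 1 or more over all 6 libraries were tested. Of these 15451 genes, 5258 (34%) were called at an adjusted p of at most 0.05, 3437 (22.2%) lower in the cKO and 1821 (11.8%) higher. The 3 cKO libraries lay below the 3 control libraries in 28.6% of the genes tested and above them in 21.8%. The median log2 fold change over the genes tested was -0.0082. Quantile normalization moved this median to 0.21 and gave 2527 genes lower and 5164 higher. The count of genes higher in the cKO fell to 1068 without control replicate 1, 1079 without control replicate 3, 1172 without cKO replicate 1, 969 without cKO replicate 3, 1041 with no filter on FPKM and 891 with a block for the replicate number. All 3 members passed the filter on low values, and 1 of the 3, *Brdt*, was called lower. With 3 genes and 22.2% of all genes called lower, this count is no result about the family as a group.

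*Brdt*, the testis member (ENSMUSG00000029279), was at 33.2, 25.9 and 25.9 FPKM in control replicates 1, 2 and 3, and at 21.8, 18.3 and 18.5 FPKM in cKO replicates 1, 2 and 3. All 3 cKO libraries lay below all 3 control libraries, and replicate 1 was the highest of both groups. The mean was 28.4 ± 4.20 FPKM (SD, n = 3) in the controls and 19.5 ± 1.95 FPKM (SD, n = 3) in the cKO, which was 68.9% of the control mean. The log2 fold change of *Brdt* was -0.51 (SE 0.12, 95% confidence interval -0.80 to -0.22, limma adjusted p = 0.0176). It rested on 2798, 2034 and 2294 fragments in the controls and 1752, 1374 and 1438 in the cKO. Of the genes tested, 20.2% had a lower log2 fold change.

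The call of *Brdt* depended on single libraries. It was lost without cKO replicate 2 (log2 fold change -0.47, limma adjusted p = 0.0569) and without cKO replicate 3 (-0.47, adjusted p = 0.0673), and with no filter on FPKM (-0.51, adjusted p = 0.10). Over all 15 alternatives, the adjusted p ranged from 0.0134 to 0.10, and the log2 fold change from -0.59 to -0.39. Without control replicate 2, the library with the most spermatid RNA, *Brdt* had a log2 fold change of -0.57 (adjusted p = 0.0230). *Brdt* was at 25.9 FPKM in control replicate 2 and in control replicate 3, while the summed spermatid markers were at 8114 and 2392 FPKM. The pachytene markers were called lower in 9 of 10 genes and the spermatid markers in 10 of 10, and their part in the lower *Brdt* was not tested. In such bulk samples, fewer cells of a type and less RNA per cell cannot be told apart.

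*Brd2*, a broadly made member that binds acetylated histones at active genes (ENSMUSG00000024335), was at 110.7, 95.7 and 98.3 FPKM in control replicates 1, 2 and 3, and at 120.3, 112.5 and 97.4 FPKM in cKO replicates 1, 2 and 3. The groups overlapped, with cKO replicate 3 below control replicates 1 and 3. The mean was 101.6 ± 8.0 FPKM (SD, n = 3) in the controls and 110.1 ± 11.7 FPKM (SD, n = 3) in the cKO. The log2 fold change of *Brd2* was 0.11 (SE 0.10, 95% confidence interval -0.13 to 0.35, limma adjusted p = 0.426). Without control replicate 2 it was 0.07 (adjusted p = 0.657), and with any 1 library left out it ranged from 0.05 to 0.20. *Brd2* was not called, and the interval holds both a small fall and a rise.

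*Brd3*, another broadly made member (ENSMUSG00000026918), was at 25.0, 30.0 and 27.1 FPKM in control replicates 1, 2 and 3, and at 28.0, 19.7 and 24.6 FPKM in cKO replicates 1, 2 and 3. The groups overlapped, and cKO replicate 1 lay above control replicates 1 and 3. The mean was 27.4 ± 2.50 FPKM (SD, n = 3) in the controls and 24.1 ± 4.13 FPKM (SD, n = 3) in the cKO. The log2 fold change of *Brd3* was -0.19 (SE 0.13, 95% confidence interval -0.50 to 0.13, limma adjusted p = 0.326). Without control replicate 2 it was -0.12 (adjusted p = 0.567), and with any 1 library left out it ranged from -0.30 to -0.06. *Brd3* was not called either, and its interval reaches changes close to that of *Brdt*.

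**Figure D1:**
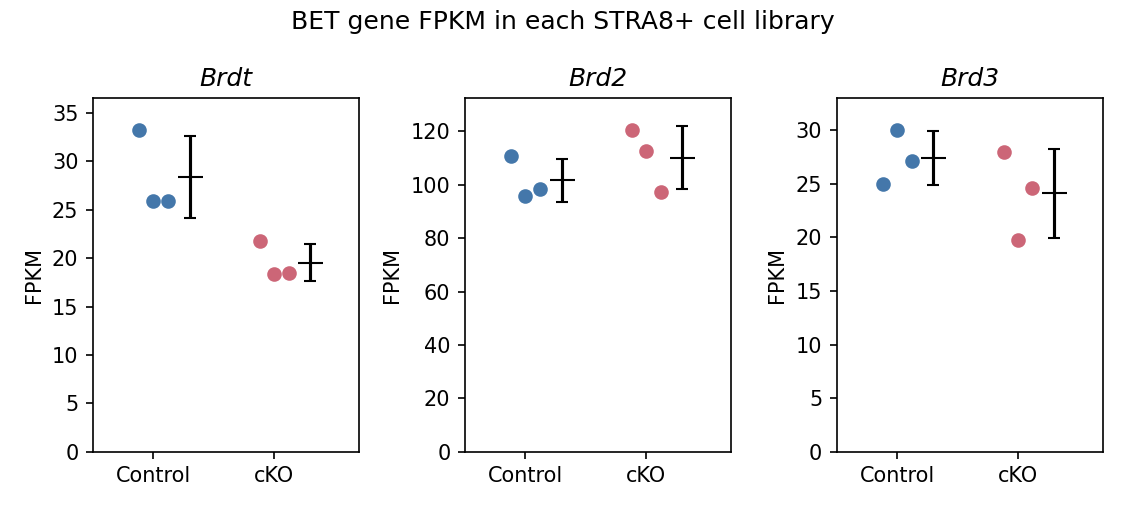
FPKM of *Brdt*, *Brd2* and *Brd3* (y axis, from 0) in each control and cKO library, with each point 1 library and the black marks the mean and SD of 3 libraries. The cKO libraries lie below the control libraries in *Brdt* (18.3 to 21.8 against 25.9 to 33.2 FPKM), and the groups overlap in *Brd2* and *Brd3*.

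FPKM is per length, so that levels can be set side by side between the members, but the lengths in the table were not alike in kind. The length used was 5115 bases for *Brdt*, 7285 for *Brd2* and 7336 for *Brd3*, and the longest transcripts in GENCODE M21 are 4745, 4657 and 5419 bases, so that the table's levels of *Brd2* and *Brd3* are low against that of *Brdt* if these transcripts are the ones made. *Brd2* had the highest level of the members in each of the 6 libraries, and its lowest library (95.7 FPKM) lay above the highest library of *Brdt* (33.2 FPKM) and of *Brd3* (30.0 FPKM). *Brdt* and *Brd3* were next to each other, and their order was not the same in all libraries. In the controls, *Brdt* ranged from 25.9 to 33.2 FPKM and *Brd3* from 25.0 to 30.0 FPKM, with *Brdt* above *Brd3* in replicate 1 and below it in replicates 2 and 3. In the cKO, *Brdt* ranged from 18.3 to 21.8 FPKM and *Brd3* from 19.7 to 28.0 FPKM, with *Brdt* below *Brd3* in each library. Per length of the longest transcript, a scale added after the data were seen, the control levels overlapped (27.9 to 35.8 for *Brdt*, 33.8 to 40.6 for *Brd3*) and the cKO levels did not (19.8 to 23.5 and 26.7 to 37.9). On this scale too *Brd2* was the highest, at 149.7 or more in each library. Of the genes tested, 98.0% had a lower mean FPKM than *Brd2*, 84.0% than *Brd3* and 82.5% than *Brdt*.

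A share within a library does not depend on how libraries were scaled to each other, although it does depend on the lengths used. *Brdt* made up 19.7%, 17.1% and 17.1% of the summed FPKM of the 3 members in control replicates 1, 2 and 3, and 12.8%, 12.2% and 13.2% in cKO replicates 1, 2 and 3. The highest cKO share lay below the lowest control share. The mean share was 18.0% ± 1.47 (SD, n = 3) in the controls and 12.7% ± 0.50 (SD, n = 3) in the cKO, and the difference was -5.25 percentage points (exact permutation test, two-sided, p = 0.1). With 3 libraries against 3, 0.1 is the smallest p that this test can give. Per length of the longest transcript, the difference in this share was -4.12 percentage points. *Brd2* made up 65.5%, 63.1% and 65.0% in the controls and 70.7%, 74.7% and 69.3% in the cKO, also with no overlap, and the difference was 7.06 percentage points (exact permutation p = 0.1). *Brd3* made up between 14.8% and 19.8% in the controls and between 13.1% and 17.5% in the cKO. The summed FPKM of the 3 members was 157.3 ± 10.1 (SD, n = 3) in the controls and 153.7 ± 15.1 (SD, n = 3) in the cKO, with ranges that overlapped.

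**Figure D2:**
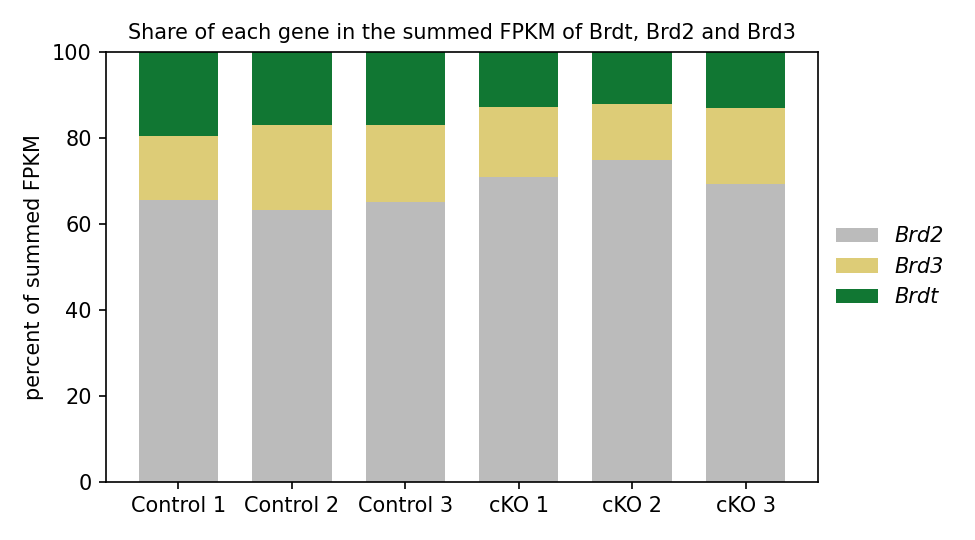
Share of *Brd2*, *Brd3* and *Brdt* in their summed FPKM (y axis, percent) in each control and cKO library (x axis), with each bar adding up to 100%. The share of *Brdt* lies between 17.1% and 19.7% in the controls and between 12.2% and 13.2% in the cKO.

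Whether the members differed from each other in their change was tested on 3 log2 ratios. The log2 ratio of *Brdt* to *Brd2* was -1.71, -1.84 and -1.88 in control replicates 1, 2 and 3 and -2.41, -2.55 and -2.34 in the cKO. The groups did not overlap, and the ratio was lower in the cKO by a difference of -0.62 (exact permutation p = 0.1, adjusted over the 3 ratios 0.3). The ratio of *Brdt* to *Brd3* was 0.40, -0.20 and -0.06 in the controls and -0.35, -0.10 and -0.39 in the cKO. Here the groups overlapped, and the difference was -0.32 (exact permutation p = 0.2, adjusted 0.3), or -0.15 without control replicate 1, -0.45 without control replicate 2 and -0.38 without control replicate 3. The ratio of *Brd2* to *Brd3* differed by 0.30 (exact permutation p = 0.3, adjusted 0.3), and by 0.15 (without cKO replicate 2) to 0.42 (without control replicate 1) with 1 library left out. With 3 libraries against 3, the exact test cannot pass 0.05 for any of the 3 ratios, and no other test of them was made. The groups were apart in the ratio of *Brdt* to *Brd2*, with SDs of 0.09 in the controls and 0.11 in the cKO (n = 3 each) beside the difference of -0.62.

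The annotation of the members was examined for reads that could be shared. In GRCm38, *Brdt* lies on the plus strand of chromosome 5 (107331159 to 107387058), *Brd2* on the minus strand of chromosome 17 (34112023 to 34122634) and *Brd3* on the minus strand of chromosome 2 (27445579 to 27507662). GENCODE M21 gives *Brdt* 4 transcripts, of which 2 are protein-coding. *Brd2* has 19, of which 5 are protein-coding, 7 retain an intron and 3 are targets of nonsense-mediated decay, and *Brd3* has 10, of which 7 are protein-coding. The values are sums over the transcripts of a gene, so that a shift between transcripts was not measured. No window of 100 bases in the transcripts of the members occurred in another annotated gene. The pseudogene *Gm8152* lies antisense within *Brdt* and had at most 8 fragments in a library, and *Mir7578* lies within *Brd3* on the same strand and had at most 7. *Brd2* overlapped no other gene of the table.

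The region before the RefSeq starts of each member was described by its CpG dinucleotides, in RefSeq promoters of GRCm38.p6. The 250 bases before the RefSeq start of *Brdt* (chr5:107330944-107331193) held 16 CpG, and those before that of *Brd3* (chr2:27475399-27475648) held 37. *Brd2* has 3 RefSeq starts, with 12, 18 and 27 CpG. These starts are not those of the table: the *Brdt* window runs past the start of the gene there, the *Brd3* window lies inside the gene, and of the *Brd2* windows 2 lie inside it and 1 across its start. The median over 32851 promoters was 6, so that the RefSeq promoters of all 3 members were richer in CpG than the median promoter. The RNA libraries hold no measurement at these promoters.

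Genes with the profile most like that of each member were taken from 8207 other protein-coding genes that averaged 5 FPKM or more. Likeness was the root mean square difference of log2(FPKM + 1) over the 6 libraries, after each gene's mean was subtracted. For *Brdt*, these genes were *Sugp2* (0.055), *Cox7b2* (0.058) and *Dexi* (0.063). Since these genes were chosen for the profile of *Brdt* over the same libraries, their changes restate its own. They had log2 fold changes of -0.59, -0.44 and -0.57 (limma adjusted p = 0.00639, 0.0301 and 0.00915), and *Sugp2* was at 21.5, 17.1 and 17.5 FPKM in the controls and 13.1, 11.8 and 11.2 FPKM in the cKO. The call of *Cox7b2* was lost without control replicate 1 or 2 or cKO replicate 2 or 3 (adjusted p = 0.0761, 0.0512, 0.0788 and 0.104) and with no filter (0.152). That of *Dexi* was lost with quantile normalization, which moved its log2 fold change to -0.30 (0.0707). For *Brd2*, they were *Mgme1* (0.031), *Ehd4* (0.041) and *Slc10a3* (0.041), and for *Brd3*, *Ddx54* (0.029), *Plekhm2* (0.038) and *Foxm1* (0.043). None of these 6 genes was called, which their choice made likely, except *Mgme1* and *Ehd4* with quantile normalization (0.0420 and 0.0421).

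Other proteins carry bromodomains too, and many of these, though not all, bind acetylated lysines. Of 33 such genes outside the members, 32 were tested, 4 (12.5%) were called lower in the cKO and 9 (28.1%) higher, against 22.2% and 11.8% of all genes tested. Their median log2 fold change was 0.14, against -0.0082 over all genes, or 0.31 against 0.21 with quantile normalization. The lowest was *Smarca2*, an ATPase of the SWI/SNF remodeller, with a mean of 5.04 FPKM in the controls and 1.5 FPKM in the cKO (log2 fold change -1.28, limma adjusted p = 0.00026). *Brpf3*, a scaffold of an acetyltransferase complex, and *Brd7*, a SWI/SNF subunit, followed with -0.73 and -0.67 (adjusted p = 0.00272 and 0.00118). The histone methyltransferase genes *Ash1l* and *Kmt2a* had the highest values. *Ash1l* rose from 12.8 to 24.4 FPKM (0.88, adjusted p = 0.000109) and *Kmt2a* from 14.4 to 24.5 FPKM (0.74, adjusted p = 0.000718). *Crebbp*, a histone acetyltransferase, rose from 13.0 to 19.5 FPKM (0.55, adjusted p = 0.0117), and its call was lost with no filter on FPKM (0.0704). *Trim28*, a corepressor, was the most abundant, at means of 144 and 131 FPKM, and was not called. The count of 9 genes higher was 4 with no filter or without control replicate 1, cKO replicate 1 or cKO replicate 3, 5 without control replicate 2 or cKO replicate 2, 3 with a block for the replicate number, and 16 with quantile normalization.

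**Figure D3:**
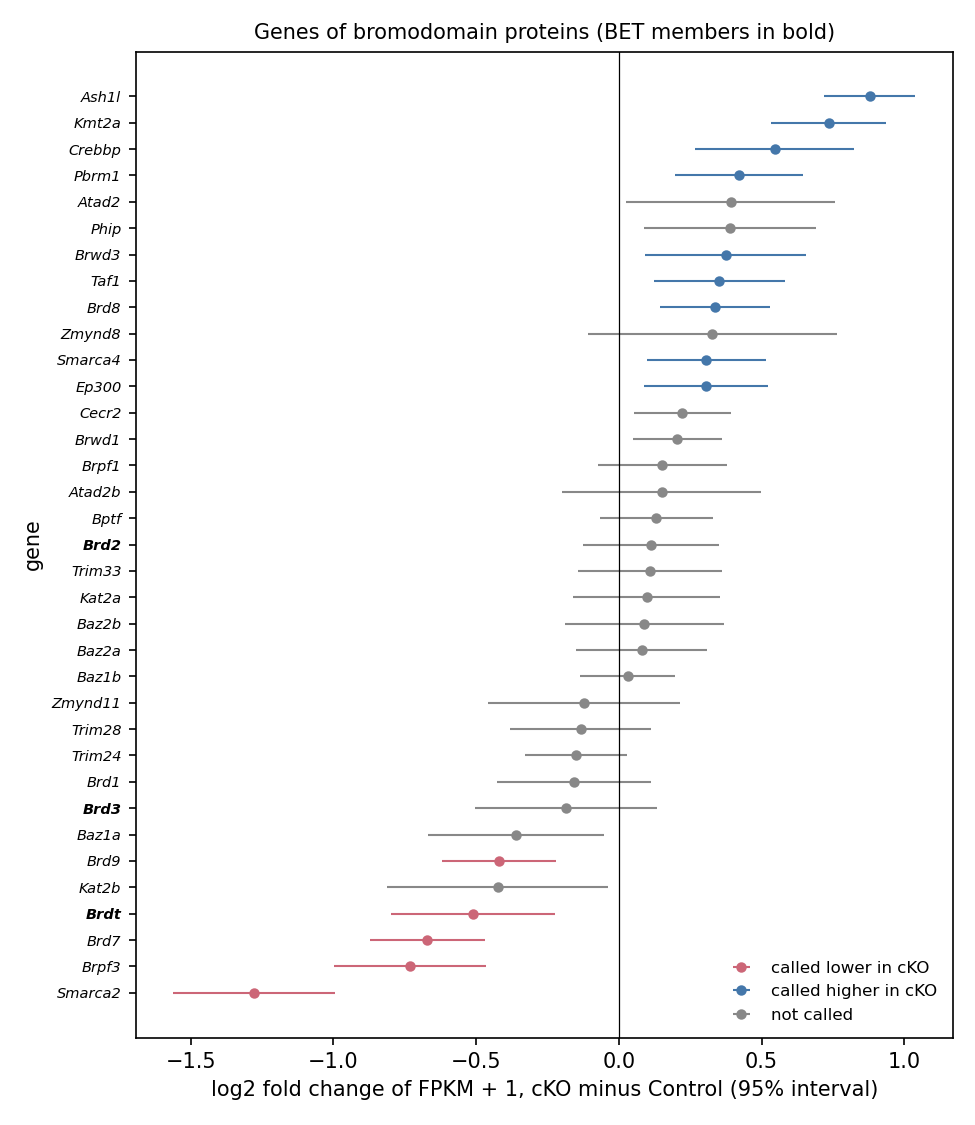
Log2 fold change of FPKM + 1, cKO minus control (x axis), with 95% confidence intervals, for the 3 BET members (bold) and 32 other bromodomain genes (y axis), coloured by the call at an adjusted p of 0.05. *Brdt* (-0.51) is among the genes called lower, and *Brd2* (0.11) and *Brd3* (-0.19) were not called.

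BET proteins release paused RNA polymerase II through P-TEFb, and the genes of this machinery were examined next. Of 22 genes of P-TEFb, its inhibitors, pausing factors and the super elongation complex, 21 were tested, 3 (14.3%) were called lower and 5 (23.8%) higher, against 22.2% and 11.8% of all genes tested. Their median log2 fold change was 0.10, or 0.24 with quantile normalization, which moved the median over all genes to 0.21. *Supt5*, a subunit of the pausing and elongation factor DSIF, fell from a mean of 60.8 to 39.0 FPKM (-0.63, limma adjusted p = 0.00128), and *Nelfe*, of the pausing factor NELF, from 76.0 to 53.5 FPKM (-0.50, adjusted p = 0.00539). *Supt4a*, also of DSIF, was called higher, from 60.6 to 76.8 FPKM (0.34, limma adjusted p = 0.0106). *Nelfa*, *Nelfb* and *Nelfcd*, also of NELF, were not called (0.24, 0.0012 and 0.012). *Larp7*, which stabilises the inhibitory 7SK RNA, fell from 90.0 to 73.8 FPKM (-0.28, adjusted p = 0.0370). It was the most abundant of the list in the controls, though not in the cKO. *Ccnt1*, the cyclin of P-TEFb, rose from 8.07 to 12.2 FPKM (0.54, adjusted p = 0.00369), and the elongation factor gene *Supt6* from 36.2 to 55.2 FPKM (0.59, adjusted p = 0.000875). *Hexim1*, an inhibitor of P-TEFb, rose from 24.3 to 38.5 FPKM (0.61, adjusted p = 0.0299). The call of *Hexim1* was lost without control replicate 1, 2 or 3 or cKO replicate 2 (adjusted p = 0.0758, 0.0662, 0.0799 and 0.0753) and with no filter (0.167), and that of *Larp7* in 8 of 15 alternatives (0.0524 to 0.130), among them quantile normalization and the replicate block. Without any 1 control library, with no filter or with the block, 3 genes were called higher in place of 5, and with quantile normalization 9. Of 5 genes whose proteins bind the extraterminal domain, *Chd4*, a nucleosome remodeller, was called higher, from 77.7 to 103 FPKM (0.41, adjusted p = 0.00297). None of the 5 was called lower, their median was 0.23, and 2 were called higher with quantile normalization, which moved the median to 0.44.

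The marks that BET proteins read are set by acetyltransferases and removed by deacetylases. Of 21 genes of acetyltransferases and their subunits, all tested, 5 (23.8%) were called lower and 4 (19%) higher, with a median log2 fold change of -0.06. The share lower was close to the 22.2% over all genes tested, and 11.8% of all genes were called higher. *Morf4l1* and *Mrgbp*, subunits of the NuA4 complex, fell from 28.0 to 16.9 FPKM (-0.69, limma adjusted p = 0.00173) and from 35.0 to 22.2 FPKM (-0.64, adjusted p = 0.00324). *Kat14* fell from 9.36 to 7.28 FPKM (-0.32, adjusted p = 0.0442), a call lost in 10 of 15 alternatives. It was lost without any 1 of the 6 libraries (adjusted p from 0.0518 to 0.149), with no filter (0.103), with no trend in the variance (0.0527), with the replicate block (0.103) and with quantile normalization, where the log2 fold change itself was -0.09 (0.492). *Kat6a* rose from 18.0 to 23.9 FPKM (0.39, adjusted p = 0.00474), and *Hat1*, the most abundant, from 79.6 to 98.9 FPKM (0.31, adjusted p = 0.0177, but 0.0616 without control replicate 3, 0.0597 with no filter and 0.0763 with the block). The 5 genes lower were 3 without control replicate 1 or cKO replicate 2 or with the block, and 2 without cKO replicate 3 or with quantile normalization, which moved the median to 0.14. The 4 genes higher were 1 with no filter and 2 with the block.

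Of 16 deacetylase genes, 14 were tested, 3 (21.4%) were called lower and 2 (14.3%) higher, which was close to the 22.2% and 11.8% over all genes tested. Their median was -0.10, or 0.05 with quantile normalization. *Sirt3*, a mitochondrial sirtuin, fell from 5.12 to 2.82 FPKM (-0.68, limma adjusted p = 0.00442). With quantile normalization, its log2 fold change was -0.35 and its call was lost (limma adjusted p = 0.0541). *Sirt2* and *Hdac3* had log2 fold changes of -0.45 and -0.25 (adjusted p = 0.0197 and 0.0271). The call of *Sirt2* was lost without control replicate 1 or 3 or cKO replicate 3 (adjusted p = 0.0578, 0.0540 and 0.0726), with no filter (0.0927) and with quantile normalization, which moved the log2 fold change to -0.30 (0.0600). The call of *Hdac3* was lost in 8 of 15 alternatives. These were without control replicate 1 or 3 or cKO replicate 1 or 3 (0.0818, 0.0838, 0.0796 and 0.103), no trend (0.0519), the replicate block (0.116), limma-voom (0.0530) and quantile normalization, which moved the log2 fold change to -0.11 (0.211). *Sirt6* rose from 11.8 to 21.3 FPKM (0.79, adjusted p = 0.00305), and *Hdac2* from 38.3 to 50.6 FPKM (0.39, adjusted p = 0.00769). *Hdac6*, a largely cytoplasmic deacetylase, was the most abundant, at 64.8 and 66.8 FPKM, and was not called. The 3 genes lower were 1 without control replicate 1, control replicate 3 or cKO replicate 3, and 0 with quantile normalization, and the 2 genes higher were 4 with quantile normalization or limma-voom.

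In spermatids, BRDT binds hyperacetylated histones as they give way to transition proteins and protamines. Of 17 genes of this exchange and of testis histone variants, all tested, 10 (58.8%) were called lower and 4 (23.5%) higher, against 22.2% and 11.8% of all genes tested, with a median log2 fold change of -0.84. *Tnp2* was at 708, 2648 and 775 FPKM in control replicates 1, 2 and 3 and at 0.460, 0.863 and 0.356 FPKM in cKO replicates 1, 2 and 3 (-9.52, limma adjusted p = 1.7e-05). *Prm2* and *Prm1*, the protamine genes, had log2 fold changes of -9.15 and -8.88 (adjusted p = 1.2e-05 and 1.8e-05), and control replicate 2 was the highest library in both. *H1fnt*, a linker histone gene of spermatids, was at 0 in all 3 cKO libraries. *Brdt* kept 68.9% of its control mean in the same libraries. The histone variant genes *Hist1h2aa*, *Hist1h1t* and *H2afj* rose, from 2.61 to 9.17 FPKM (1.46, adjusted p = 0.00162), from 1.21 to 4.42 FPKM (1.28, adjusted p = 0.00769) and from 7.83 to 16.7 FPKM (1.02, adjusted p = 0.00245). Few fragments lay behind *Hist1h2aa* (15 to 18 in the controls, 38 to 63 in the cKO) and *Hist1h1t* (14 to 26 and 39 to 81). *Hist1h2ba*, of the same list, was at 16.8 FPKM in both groups and was not called. The call of *Hist1h1t* was lost with no filter on FPKM (0.0657), where 2 genes of the list were called higher in place of 4.

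The marker lists of other cells give the setting of these values. Of the pachytene markers, *Ldhc* was at 387, 429 and 339 FPKM in the controls and 0.685, 1.17 and 1.37 FPKM in the cKO (-7.55, limma adjusted p = 9.1e-07). The median log2 fold change was -3.00 over the 10 pachytene markers and -4.38 over the 10 spermatid markers. Of 10 markers of early meiotic prophase, 2 (20%) were called lower, about the 22.2% over all genes tested, and none higher (11.8% over all genes), with a median of -0.22, and their summed level was 1274, 933 and 1175 FPKM in the controls and 1008, 1249 and 943 FPKM in the cKO. The sums overlapped, and the single genes did not all follow them. *Sycp3*, of the synaptonemal complex, was the most abundant, with means of 222 and 218 FPKM, and was not called. *Spo11*, whose protein makes the meiotic DNA breaks, fell from 18.7 to 8.85 FPKM (-1.01, adjusted p = 0.00496), and *Rec8*, a meiotic cohesin gene, from 20.7 to 13.7 FPKM (-0.56, adjusted p = 0.00892), in both with all cKO libraries below all control libraries. Both calls were lost with no filter on FPKM (0.0534 and 0.0586).

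The counts of the spermatogonial and germ cell lists stand beside 22.2% of all genes tested called lower and 11.8% higher. Of 10 markers of differentiating spermatogonia, 1 (10%) was called lower and none higher, with a median of 0.14, and the sum was 1290, 1278 and 1287 FPKM in the controls and 1405, 1402 and 1406 FPKM in the cKO. *Prss50* was the most abundant, at 430 and 454 FPKM. Of 10 markers of undifferentiated spermatogonia, 8 were tested, 1 (12.5%) was called lower and 1 (12.5%) higher, with a median of 0.09, and the sum was 55.8, 68.3 and 65.7 FPKM in the controls and 63.7, 59.6 and 68.7 FPKM in the cKO, with *Lin28a* highest. The 5 markers shared by germ cells, led by *Tex101*, held 2 genes (40%) lower and 2 (40%) higher, with a median of -0.06 and sums of 1792, 1540 and 1749 FPKM in the controls and 1752, 2039 and 1689 FPKM in the cKO. The spermatogonial sums overlapped between the groups in the undifferentiated list, and lay higher in the cKO in the differentiating list.

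Markers of somatic cells were led by those of Sertoli cells, of which *Clu* averaged 52.5 FPKM in the controls and 52.1 in the cKO, above *Brdt* and *Brd3*. *Clu* stood apart in its list. *Cldn11* was next, with means of 9.21 and 12.4 FPKM, below *Brdt* and *Brd3*, and no other Sertoli marker had a group mean above the 4.11 FPKM of *Rhox5* in the cKO. The 8 Sertoli markers, led by *Clu*, summed to 72.6, 57.8 and 86.9 FPKM in the controls and 120, 48.5 and 66.5 FPKM in the cKO. Of the 7 tested, 1 (14.3%) was called higher and none lower, with a median of 0.18. Over all genes tested, 11.8% were called higher and 22.2% lower. The highest Sertoli sum was in cKO replicate 1, which was also the cKO library with the most *Brdt*, *Brd2* and *Brd3*. Without cKO replicate 1, the log2 fold changes were -0.59 for *Brdt*, 0.05 for *Brd2* and -0.30 for *Brd3*. The 6 Leydig markers summed to 5.45, 14.0 and 2.95 FPKM in the controls and 10.2, 6.34 and 10.7 FPKM in the cKO, with none of 2 tested called and a median of 0.47. *Insl3* led them by the control mean, though not by the cKO mean, and was at 2.14, 9.74 and 0 FPKM in control replicates 1, 2 and 3. The 5 peritubular markers, led by *Tagln*, summed to 3.69, 6.44 and 4.13 FPKM and to 8.16, 7.04 and 7.35 FPKM, with none of 2 tested called and a median of 0.51, but *Tagln* was called higher in 5 of 14 alternatives. The 6 markers of macrophages and blood, led by *Cd68*, summed to 5.27, 8.45 and 4.94 FPKM and to 5.16, 6.46 and 5.32 FPKM, with none of 2 tested called and a median of -0.05. No marker of these 4 lists was at 0 in all libraries of a group. When a library was left out, the pachytene and spermatid counts stayed at 9 and 10. The 1 Sertoli marker called higher was lost without control replicate 1 or 2 or cKO replicate 1 or 3, and the 1 undifferentiated marker called higher without control replicate 3 or cKO replicate 1 or 3. The other counts moved by at most 1 gene, and the germ cell markers called lower were 1 in each case but that without cKO replicate 2. With no filter on FPKM, 1 germ cell marker was called lower and none higher, and no Sertoli marker. With the replicate block, no germ cell or undifferentiated marker was called higher. With quantile normalization, 3 undifferentiated, 4 differentiating, 1 Leydig and 2 peritubular markers were called higher, and with limma-voom 3, 2, 1 and 1. Quantile normalization moved the median over all genes to 0.21, and those of the Sertoli, Leydig, peritubular and macrophage lists to 0.51, 0.75, 0.90 and 0.36. It moved those of the undifferentiated, differentiating, early meiotic and germ cell lists to 0.32, 0.25, -0.14 and 0.02. With recomputed FPKM, 2 differentiating markers were called higher, and 1 Leydig and 1 peritubular marker. The Leydig count was also 1 with a pseudocount of 0.1, median-of-ratios scaling and no trend. The part of these cells in the BET values was not tested.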

How the data were processed

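The authors deposited 1 table of FPKM with a column for each of the 6 libraries and the gene length used. The submitters' processing notes name HISAT2 2.0.5 and mm10, and the counting tool is not given in the sources used here. The product of FPKM and gene length was a whole number of steps (tolerance 0.1 of a step) for 100% of the values above 0, which gave back the fragments of each gene.

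Libraries were grouped by the genotype in their labels. From the FPKM, log2(FPKM + 1) was computed, and genes averaging 1 FPKM or more were kept. The groups were compared, two-sided, by linear models in limma 3.58.1 (R 4.3.3) with moderated variances that follow a trend with intensity, with Benjamini-Hochberg adjustment over all genes tested and a threshold of 0.05. Shares and log2 ratios were compared with exact permutation tests over libraries. The labels do not say that the libraries came from separate animals, so the p-values measure only the spread between these samples, which may be technical. The code was tested on simulated data.

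The members and the gene lists were chosen with earlier results of these data known. Genes named were *Srsf1*, the members, the 3 genes most like each member, from each related list up to 3 called genes with the lowest and up to 3 with the highest log2 fold change and the most abundant gene, from each marker list the most abundant gene, and *Stra8*, *Kit* and *Ddx4*. The overlapping genes *Gm8152* and *Mir7578*, *H1fnt*, *Txndc8*, *Spo11* and *Rec8* were added after their values were seen. So were *Supt4a*, *Nelfa*, *Nelfb*, *Nelfcd*, *Brd9*, *Smarca4*, *Pbrm1*, *Cldn11*, *Rhox5* and *Hist1h2ba*, whose own alternatives are not given. Alternatives were a pseudocount of 0.1, no filter or a mean of at least 5 FPKM, median-of-ratios scaling, quantile normalization, a variance prior with no trend, a block for the replicate number, limma-voom on the recovered fragments, FPKM recomputed from those fragments, and leaving out each library in turn. Levels per length of the longest transcript were added after the data were seen. Transcripts were taken from GENCODE M21 and promoters from RefSeq (GRCm38.p6).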

Additional observations from a re-analysis of the deposited data

How the results depend on the processing

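*Brd2* and *Brd3* kept their direction and were not called in any of 15 alternatives (log2 fold change 0.05 to 0.20 and -0.30 to -0.06). *Brdt* was lower in all 15 and called in 12. It was not called with no filter on FPKM (-0.51), and leaving out 1 library gave -0.59 to -0.39, not called without cKO replicate 2 or 3. The cause was not tested. The *Brdt* share and the 3 ratios kept their direction. The length of the longest transcript, chosen after seeing the data, nearly cancels in the change of a ratio and is no check of it. Genes lower in the cKO numbered 1950 with a mean of at least 5 FPKM, where fewer genes were tested. Genes higher numbered 1041 with no filter, 5164 with quantile normalization, and 969 to 1767 with 1 library left out. The labels do not say whether equal replicate numbers pair the libraries, and 3 libraries per group cannot decide it. After the group means were subtracted, the correlations of same-numbered libraries over 15451 genes were -0.0014, -0.11 and 0.016. Those of differently numbered libraries ranged from -0.15 to 0.13. With the replicate block, 891 genes were higher and 2870 lower, and *Brdt* stayed called (-0.51, limma adjusted p = 0.0147). For 55 other named genes, 728 of 819 alternative values kept direction and call, 61 lost the call, 8 gained it and 22 changed sign, the last only in genes that were not called. With quantile normalization, *Tex101* was at 0.018, *Clu* at 0.011 and *Plekhm2* at 0.090, and *Sycp3* was at 0.013 with limma-voom and 0.014 with recomputed FPKM. With 1 library left out, *Hdac6* ranged from -0.076 to 0.15, *Prss50* from -0.035 to 0.16, *Sycp3* from -0.19 to 0.055, *Tex101* from -0.20 to 0.064, *Clu* from -0.44 to 0.19, *Insl3* from -0.33 to 1.38 and *Cd68* from -0.068 to 0.17. Of 480 alternative counts of called list genes, 79 moved by over 1.5 times. The members had at least 1374 fragments in each library, and the effect of depth on them was not tested.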
